A study of Mus musculus with 20 samples.

Results

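Untreated tumours of the olaparib-resistant line MDA594OR2, called OR2 here, were compared with untreated tumours of MDA594, the line that responds to inhibitors of the PARP enzymes. The comparison used every library whose title names the tumour line and an untreated (control) tumour, which gave 2 libraries of OR2 and 4 of MDA594, 6 of the 20 libraries of the series. All tumours were mouse breast cancers grown as allografts, meaning mouse tumour tissue carried in other mice, and poly(A) RNA was sequenced from each. The other groups were the resistant line MDA594OR1 (OR1), untreated in 3 libraries, and tumours treated with olaparib, with 3 libraries of MDA594, 3 of OR2 and 4 of OR1. They were used here to share the estimate of spread and to set values beside those of untreated OR2. The titles also carry a short code, taken as the host animal although the labels do not say so. Both untreated OR2 libraries have 1 code, and the 4 untreated MDA594 libraries have 3 codes. The labels give no strain, sex, age or genotype, the number after the name of the drug in the titles has no unit, and the labels do not say how many clones or passages a line represents. A difference between the lines and a difference between the animals that carried them thus cannot be told apart for untreated OR2. Both OR2 libraries also come from 1 of the 2 series of library names (ABA450), which holds 2 of the 4 untreated MDA594 libraries, numbers 3 and 4, themselves of 1 code. P-values thus refer to the spread among these libraries, not to that over more animals. The remaining library of the series has a title and a treatment label that disagree, and it entered no comparison.

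Olaparib blocks PARP1 and PARP2, enzymes that mark broken DNA for repair, and cells that cannot repair breaks by homologous recombination are especially sensitive to it. Known routes to resistance include renewed recombination, loss of the 53BP1 and shieldin proteins that hold DNA ends back from recombination, loss of PARG, which removes poly(ADP-ribose), and export of the drug by P-glycoprotein. Several genes that differed most between the lines were imprinted genes. An imprinted gene is read from the maternal or the paternal copy alone, according to DNA methylation laid down in the germ line at a control region and copied at each cell division. Such regions often contain the promoter of a long noncoding RNA that is active on 1 parental copy only and keeps neighbouring genes silent on that copy.

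The 6 libraries held 48.7 to 89.2 M reads, and levels are given as deposited, in log2 CPM (reads per M, on a log2 scale). The deposited values divide by a scaled library size, which differs from the reads that a library held. The epithelial label was checked with Epcam and the keratins of mammary cells. Epcam stood between 9.25 and 10.16 in the 6 libraries and Krt8 between 7.80 and 8.88, while Krt14, a basal keratin, stood at -6.72 to -0.99, and Krt5 was not in the table. Host cells were present in every tumour. The leukocyte marker Ptprc ranged from 3.93 to 5.62, the endothelial marker Pecam1 from 3.70 to 5.29 and the collagen gene Col1a1 from 6.39 to 8.89, with overlap between OR2 and MDA594 in all 3. Esr1, the oestrogen receptor, was at 0.17 to 1.21 in MDA594 and 1.73 and 0.71 in OR2, and Vim, an intermediate filament of mesenchymal cells, at 7.01 to 8.04 and 7.54 and 8.43. In whole tumours, fewer cells of a type and less RNA per cell cannot be told apart.

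Untreated OR2 differed from untreated MDA594 in 35 of 16330 tested genes. In OR2, 21 genes were higher and 14 were lower (limma with Benjamini-Hochberg adjustment, threshold 0.05, two-sided), which is 0.129% and 0.0857% of all genes tested. In each of the 35, the 2 OR2 libraries lay outside the range of the 4 MDA594 libraries. That alone is common with so few libraries, since both OR2 libraries lay above all 4 MDA594 libraries for 12.6% of all genes and below them for 12%. The median difference over all genes was -0.01 on the log2 scale, and 1730 genes had an unadjusted p under 0.05. Differences ran from 1.11 to 9.02 among the higher genes and from -0.76 to -8.46 among the lower ones, as differences of group means in log2 CPM.

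The count rested on single libraries. Without OR2 library 1, limma called 5 genes, all among the 35, and without OR2 library 2 it called 222, among them 32 of the 35. Without MDA594 libraries 1, 2, 3 and 4 in turn it called 96, 38, 66 and 65 genes, with 35, 23, 35 and 35 of the original calls. Libraries outside the comparison mattered through the shared spread, with 6 genes called without MDA594 treated library 3, 21 without MDA594 treated library 2, 22 without OR1 library 1, 53 without OR2 treated library 2, 69 without OR2 treated library 3 and 220 without OR2 treated library 1. Snhg14, Snrpn, Gm38393, Kcnq1ot1 and Fezf1 were called without any 1 of the 6 libraries compared, and the other 30 were not called without at least 1 of them. A fit of the 6 libraries alone called 7 genes, 5 of them among the 35, namely Snhg14, Snrpn, Gm38393, Kcnq1ot1 and Igf2r. None of the 21 higher genes passed in that fit, with Fezf1 at an adjusted p of 0.162 and Xbp1 at 0.121 by limma. All 35 kept their direction in these fits. Within the ABA450 libraries alone, where each line has 1 host code, all 35 also had the same direction, with Snhg14 at -7.77, Snrpn at -6.94, Kcnq1ot1 at -5.31, Igf2r at -5.25 and Fezf1 at 5.13.

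Among the called genes of the lists, all those lower in OR2 were imprinted genes. Of 41 imprinted genes listed, 32 were tested. Of these, 0 were called higher, against 0.129% of all genes, and 4 lower, against 0.0857%, namely Snhg14, Snrpn, Kcnq1ot1 and Igf2r. They lie in 3 separate imprinted regions, on chromosomes 7 and 17. The median over the 32 was 0.12, and 20 of them had a positive difference, so the list as a whole did not sit low. The sequences around the transcription starts of the called genes, and of the antisense RNA Airn that starts inside Igf2r, are shown because these regions are where parental marks are read. They are RefSeq promoter windows on build GRCm38.p6, 250 bases before and 50 after a start, written 5′ to 3′ on the strand of the gene, and 5 of 5 symbols looked up were found. Capitals mark the dinucleotide CG, which carries methylation and reads the same on both strands. Snrpn has several starts, and the outermost is shared with Snhg14.
Snrpn, inner start, chr7:60005150-60005449, minus strand: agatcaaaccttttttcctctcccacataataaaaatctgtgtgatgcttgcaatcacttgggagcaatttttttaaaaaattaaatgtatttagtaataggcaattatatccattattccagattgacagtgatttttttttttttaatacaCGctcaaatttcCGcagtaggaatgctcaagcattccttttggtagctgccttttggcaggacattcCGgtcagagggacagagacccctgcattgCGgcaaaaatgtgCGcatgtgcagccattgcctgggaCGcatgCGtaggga
Snrpn and Snhg14, outer start, chr7:60450128-60450427, minus strand: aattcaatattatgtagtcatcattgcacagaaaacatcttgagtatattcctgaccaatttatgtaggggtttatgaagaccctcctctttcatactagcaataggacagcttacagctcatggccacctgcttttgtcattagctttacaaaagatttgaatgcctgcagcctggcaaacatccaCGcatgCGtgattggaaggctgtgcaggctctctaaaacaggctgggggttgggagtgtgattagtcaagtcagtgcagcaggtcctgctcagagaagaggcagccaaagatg
Kcnq1ot1, chr7:143296498-143296797, minus strand: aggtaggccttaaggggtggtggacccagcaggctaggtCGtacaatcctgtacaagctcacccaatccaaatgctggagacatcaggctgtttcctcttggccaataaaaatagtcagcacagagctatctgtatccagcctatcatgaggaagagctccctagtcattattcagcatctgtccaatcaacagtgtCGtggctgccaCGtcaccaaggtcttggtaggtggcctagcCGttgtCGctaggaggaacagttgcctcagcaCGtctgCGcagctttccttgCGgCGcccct
Igf2r, chr17:12769657-12769956, minus strand: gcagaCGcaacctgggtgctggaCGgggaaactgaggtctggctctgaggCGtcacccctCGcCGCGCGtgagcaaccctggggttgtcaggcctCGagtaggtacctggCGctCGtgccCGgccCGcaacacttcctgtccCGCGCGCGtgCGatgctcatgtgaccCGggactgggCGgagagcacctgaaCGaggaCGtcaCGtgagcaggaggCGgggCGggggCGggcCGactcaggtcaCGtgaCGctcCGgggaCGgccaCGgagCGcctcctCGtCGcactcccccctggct
Airn, chr17:12741061-12741360, plus strand: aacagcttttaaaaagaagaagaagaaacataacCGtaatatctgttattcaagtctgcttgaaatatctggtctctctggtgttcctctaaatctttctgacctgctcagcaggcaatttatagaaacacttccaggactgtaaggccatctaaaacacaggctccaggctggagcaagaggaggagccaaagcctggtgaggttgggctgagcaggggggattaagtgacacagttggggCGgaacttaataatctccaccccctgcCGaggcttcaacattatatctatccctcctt
The windows hold 7, 2, 9, 34 and 3 CG dinucleotides, in the order printed. Of 32851 mouse promoter windows of this length, 52.1%, 85.9%, 45.8%, 7.73% and 76.7% have at least as many. The sequence does not show whether a window is methylated in these tumours.

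Snrpn (ENSMUSG00000102252.6) encodes a core protein of the spliceosome and is read from the paternal copy. It stood at 3.996, 4.54, 4.35 and 4.51 log2 CPM in MDA594, at 754 to 1776 reads, and at -2.97 and -2.04 in OR2, at 9 and 19 reads. The groups were far apart, with a difference of -6.84 (SE 0.35, adjusted p = 4e-09 by limma), a 115-fold lower level. Snhg14 (ENSMUSG00000100826.8), the paternally read noncoding RNA that hosts clusters of small nucleolar RNAs and runs on through Ube3a on the opposite strand, stood at 5.34, 5.02, 5.15 and 5.22 in MDA594 and at -2.70 and -2.47 in OR2. Its 2 OR2 libraries had 11 and 14 reads against at least 1709 in each MDA594 library, and the difference was -7.77 (SE 0.37, adjusted p = 2.20e-09 by limma). The gene model Gm38393 had 880, 610, 795 and 1322 reads in MDA594 and 1 and 6 in OR2 (adjusted p = 4.99e-05 by limma). It overlaps Snrpn in the same stretch of chromosome 7, and strand use in counting is not given in the sources used here, so reads of these genes may not be separate.

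**Figure D1:**
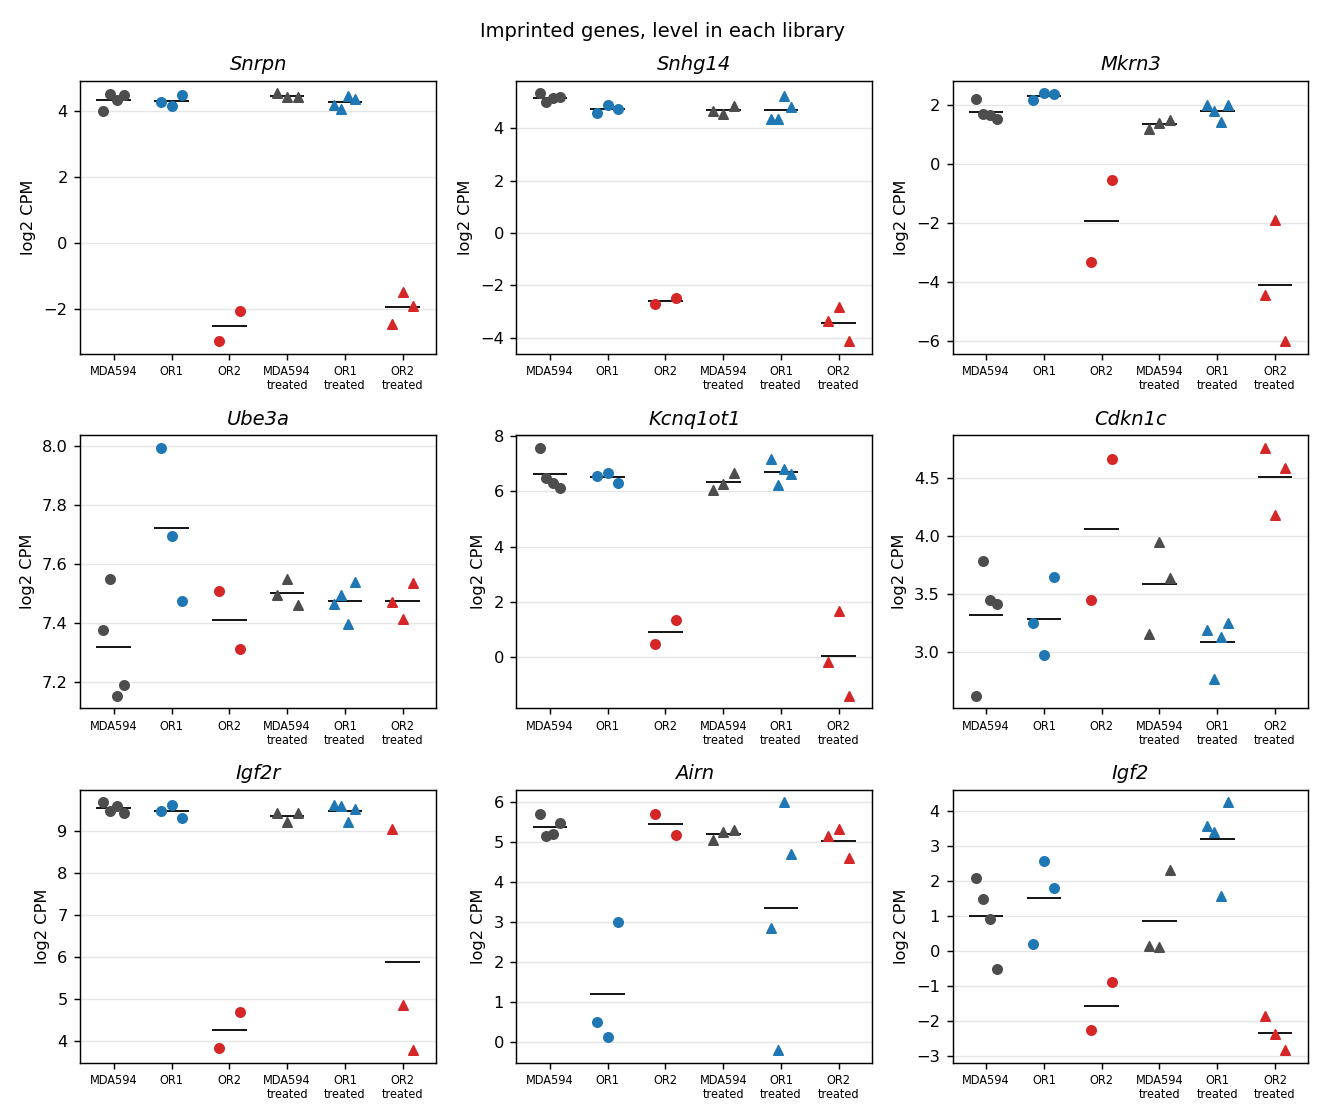
Level of 9 imprinted genes in log2 CPM (vertical axis, 1 scale per panel) in the 6 groups (horizontal axis); circles are untreated and triangles olaparib-treated libraries, and each black line is a group mean. Snrpn, Snhg14 and Kcnq1ot1 were low in all 5 OR2 libraries, and Igf2r in 4 of them.

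Other genes of the same region differed in what they showed. Mkrn3, a paternally read ubiquitin ligase, stood at 1.53 to 2.22 in MDA594 and at -3.32 and -0.54 in OR2, with no overlap, and its difference of -3.74 did not pass (SE 0.9975, adjusted p = 0.128 by limma). Ube3a, a ubiquitin ligase that is read from both copies outside neurons, stood at 7.15 to 7.55 in MDA594 and at 7.51 and 7.31 in OR2, with overlap. Its difference was 0.07 (95% confidence interval -0.29 to 0.43). These 2 genes, like every imprinted gene named below that was not called, were chosen after their values were seen.

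Kcnq1ot1 (ENSMUSG00000101609.5) is a paternally read noncoding RNA that starts inside Kcnq1 and silences neighbours on its own copy. It stood at 7.58, 6.48, 6.32 and 6.12 in MDA594, with 4699 to 9045 reads, and at 0.47 and 1.34 in OR2, with 103 and 203 reads. The OR2 libraries were both far below, with a difference of -5.79 (SE 0.67, adjusted p = 5.21e-04 by limma), 55.2-fold. Cdkn1c, a cell cycle inhibitor that Kcnq1ot1 silences on the paternal copy, stood at 2.62, 3.78, 3.45 and 3.41 in MDA594 and at 3.45 and 4.67 in OR2. These groups overlapped, and the difference of 0.76 did not pass (95% confidence interval -0.19 to 1.70, adjusted p = 0.615 by limma).

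Igf2r (ENSMUSG00000023830.15) encodes the receptor that carries the growth factor Igf2 to lysosomes for breakdown and is read from the maternal copy in mice. It stood at 9.69, 9.49, 9.60 and 9.44 log2 CPM in MDA594, with 37900 to 57274 reads, and at 3.84 and 4.69 in OR2, with 1069 and 2073 reads. The difference was -5.30 (SE 0.99, adjusted p = 0.0351 by limma), 39.3-fold, and did not pass without OR2 library 1 (-4.87, adjusted p = 0.236) or MDA594 library 2 (-5.33, adjusted p = 0.0531). It also did not pass with 1 mean per host code (adjusted p = 0.209), with voom (adjusted p = 0.062) or without the mean trend (adjusted p = 0.0575), where the differences were -5.30, -5.29 and -5.30. Airn, the paternal RNA that silences Igf2r in cis, stood at 5.14 to 5.69 in MDA594 and at 5.70 and 5.18 in OR2. Its difference was 0.06 with a wide 95% confidence interval of -3.18 to 3.29, since its level varied strongly within other groups. Igf2 itself stood at 2.09, 1.48, 0.93 and -0.52 in MDA594 and at -2.27 and -0.89 in OR2, without overlap and without passing (-2.70, SE 1.07, adjusted p = 0.361 by limma). H19, the noncoding RNA next to Igf2, stood at 5.04 and 10.13 in the OR2 libraries, a gap wider than the range of 3.87 to 7.30 in MDA594.

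The low imprinted genes were also low in treated OR2 tumours. Treated OR2 and treated MDA594 share no library and no host code with the untreated comparison. In them, Snhg14 differed by -8.16 (adjusted p = 9.20e-11), Snrpn by -6.42 (adjusted p = 1.10e-09) and Kcnq1ot1 by -6.34 (adjusted p = 1.74e-05), all by limma. Mkrn3 differed by -5.49 there and passed (adjusted p = 0.00565 by limma). For Igf2r the treated OR2 libraries were divided, at 9.05, 4.85 and 3.79 against 9.22 to 9.45 in treated MDA594, and the difference was -3.48 (adjusted p = 0.0501 by limma). The treated OR2 library with the high Igf2r value is number 1, which comes from the other series of library names (ABA445). That library was also the one with Peg3, a paternally read zinc finger gene, at -0.05, against 8.15 to 8.33 in the other 4 OR2 libraries and 8.24 to 8.56 in untreated MDA594.

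OR1 tumours had these genes near the MDA594 level. In untreated OR1, Snhg14 was at 4.59 to 4.89, Snrpn at 4.15 to 4.48, Kcnq1ot1 at 6.32 to 6.66 and Igf2r at 9.32 to 9.64. The direct comparison of untreated OR2 with untreated OR1, which shares the OR2 libraries, called 28 genes, 0.171% of those tested. Snhg14 at -7.32 (adjusted p = 1.02e-08), Snrpn at -6.84 (adjusted p = 1.02e-08) and Kcnq1ot1 at -5.59 (adjusted p = 0.00147) passed in it by limma, and Igf2r at -5.20 did not (adjusted p = 0.0616). Airn, in contrast, was at 0.49, 0.11 and 2.99 in untreated OR1. Of 13 tested genes of DNA methylation and imprint maintenance, among them the maintenance methyltransferase Dnmt1 at -0.17 (95% confidence interval -0.69 to 0.34), 0 were called in OR2 against MDA594, with a median of -0.24 and a range of -0.53 to 0.14. Over all genes 35 of 16330 were called, so 0 among 13 is near that share.

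The other 9 genes that fell in OR2 belonged to no list. Zcchc12, a zinc finger protein that acts with BMP signalling, stood at -0.15 to 0.38 in MDA594, with 58 to 80 reads, and at -3.13 and -4.16 in OR2, with 8 and 4 reads. Its difference was -3.84 (SE 0.64, adjusted p = 0.0280 by limma), and in OR1, at 1.24 to 2.69, it was above the MDA594 libraries. With so few reads, Zcchc12 did not pass with voom (adjusted p = 0.232) or quantile normalisation (adjusted p = 0.0704). Nor did it pass in limma with a pseudocount of 1 CPM (-0.99, adjusted p = 0.372) or the 6 libraries alone (adjusted p = 0.262). Col9a3, a chain of collagen IX, was abundant in both lines, at 9.93 to 10.32 in MDA594 and 8.11 and 8.42 in OR2 (-1.84, SE 0.31, adjusted p = 0.0280 by limma). Dst, a large linker between cytoskeleton and hemidesmosomes, stood at 7.37 to 7.89 in MDA594 and 5.18 and 6.05 in OR2, a 3.84-fold fall. Aif1l, an actin-binding protein, fell 4.09-fold and Morn4, a protein of MORN repeats, 5.18-fold. Sash1, a scaffold protein described as a candidate tumour suppressor in human breast cancer, fell by 1.27 (SE 0.24). Setd6, which methylates the NF-kB subunit RelA, fell by 1.20 (SE 0.23), and Cnep1r1, a subunit of a nuclear envelope phosphatase, by 0.76 (SE 0.14). The noncoding gene model Gm10687 fell by 1.96 (SE 0.36). Each of these 9 was called with an adjusted p between 0.0280 and 0.0399 by limma.

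The genes with the largest rises were close to silent in MDA594. Fads2b, a member of the fatty acid desaturase family, had 0, 0, 2 and 0 reads in the MDA594 libraries and 390 and 573 in OR2. The noncoding gene model Gm30948 had 2, 0, 1 and 0 reads against 157 and 735. Slc34a2, a sodium-dependent phosphate transporter of lung and secretory epithelia, had 4, 2, 5 and 7 reads against 283 and 135. No fold is given for these 3 genes, whose adjusted p was 0.0280, 0.0280 and 0.0455 by limma. Gm30948 was also above MDA594 in OR1, at -1.42 to -0.26 log2 CPM against -7.28 to -4.24, although the OR1 difference did not pass.

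Fezf1 (ENSMUSG00000029697.7), a zinc finger repressor of forebrain and olfactory development, had the smallest p of the higher genes. It stood at -0.95, -0.70, -1.999 and -2.24 log2 CPM in MDA594, with 16 to 32 reads, and at 3.17 and 2.86 in OR2, with 670 and 584 reads. The difference was 4.38 (SE 0.55, adjusted p = 0.00128 by limma), 20.8-fold, with OR2 far above. The adjoining noncoding models Gm56925, at 10 to 23 reads in MDA594 and 486 and 247 in OR2, and C130093G08Rik, at 11 to 53 and 1209 and 531, rose by 4.11 (SE 0.75) and 4.39 (SE 0.79). Where such neighbours overlap, their reads may not be separate. Untreated OR1 held Fezf1 at 1.16 to 1.77, between the other lines, and the OR1 difference from MDA594 of 2.79 also passed (adjusted p = 0.0293 by limma), while OR2 against OR1 did not (1.58, adjusted p = 0.289).

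**Figure D2:**
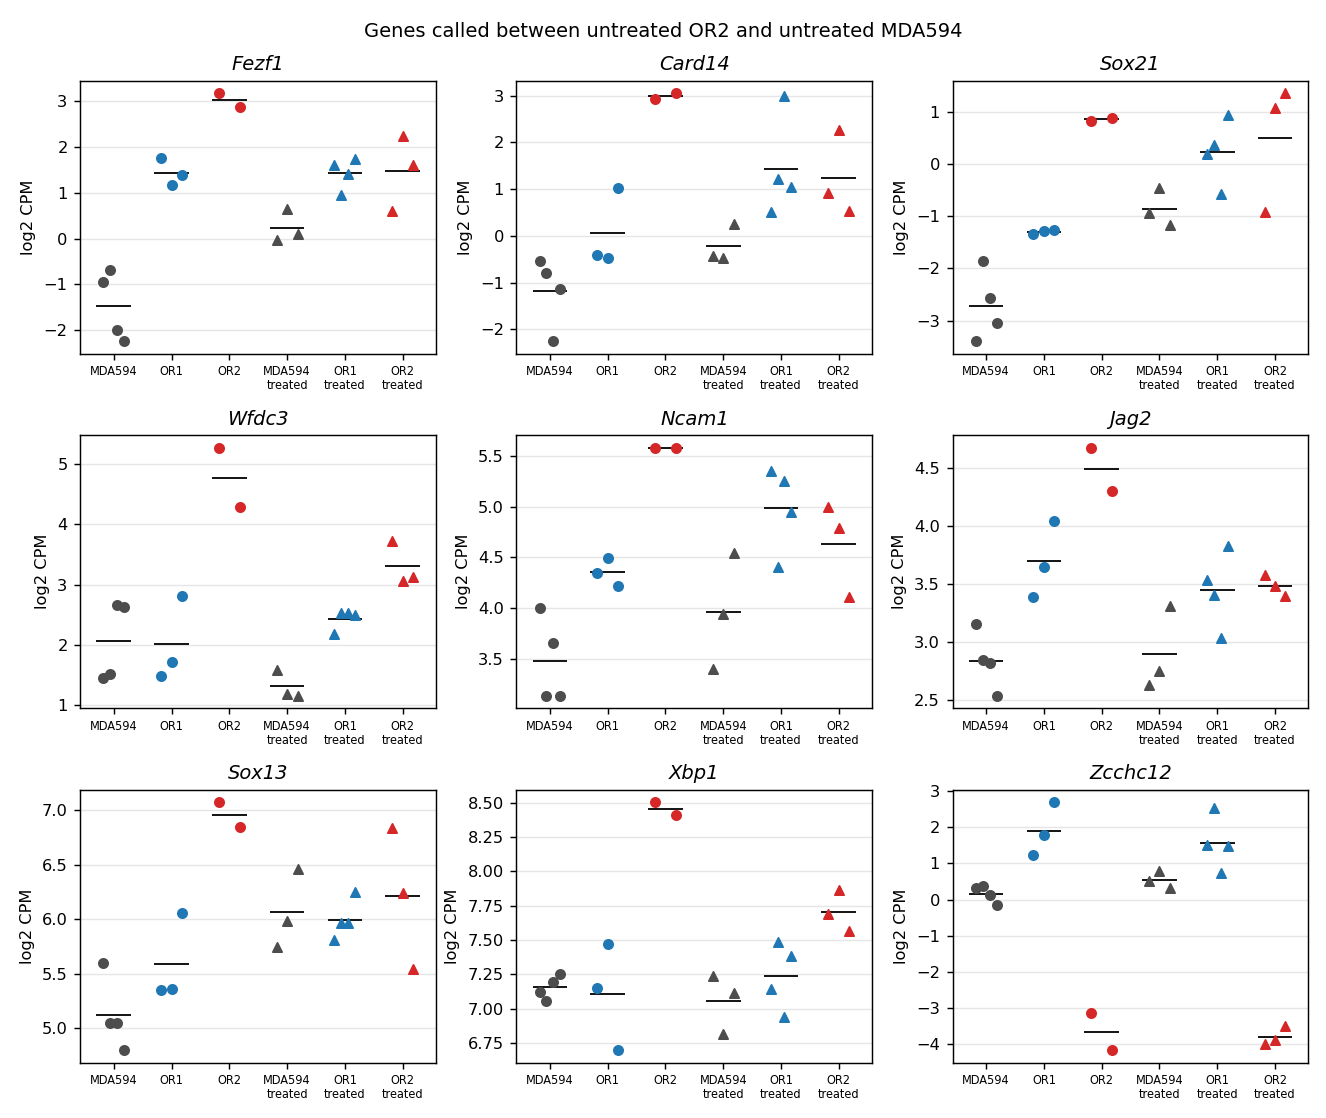
Level in log2 CPM (vertical axis, 1 scale per panel) of 9 called genes in the 6 groups (horizontal axis); circles are untreated and triangles olaparib-treated libraries, and each black line is a group mean. Untreated OR2 lay outside the untreated MDA594 range in all 9 panels, above it in 8 and below it for Zcchc12.

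Sox21 and Sox13 encode HMG box factors of development. Sox21 had 4 to 14 reads in MDA594 and 131 and 148 in OR2 (3.55, SE 0.71, adjusted p = 0.0484 by limma), and Sox13 stood at 4.80 to 5.60 log2 CPM against 7.07 and 6.85 (1.80, SE 0.35). Xbp1 (ENSMUSG00000020484.20), the factor made by Ire1 splicing in the unfolded protein response and needed by secretory cells, stood at 7.12, 7.06, 7.19 and 7.25 in MDA594 and at 8.50 and 8.41 in OR2. The groups were tight and apart, with a difference of 1.31 (SE 0.24, adjusted p = 0.0351 by limma), a 2.49-fold rise. It was the 1 called gene of 20 tested in the unfolded protein response list, against 0.129% of all genes called higher. The median of that list was 0.04, and the chaperone Hspa5 differed by 0.16 (95% confidence interval -0.37 to 0.69). The deposited values are per gene and hold no splice form of Xbp1. Tsc22d1, a leucine zipper protein induced by TGF-beta, rose by 1.82 (SE 0.32), and Csrnp2, a nuclear protein of the cysteine-serine-rich family, by 1.21 (SE 0.18, adjusted p = 0.0114 by limma).

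Jag2 (ENSMUSG00000002799.7), a ligand of Notch receptors, stood at 3.16, 2.84, 2.82 and 2.54 in MDA594 and at 4.67 and 4.30 in OR2, a rise of 1.62 (SE 0.30, adjusted p = 0.0337 by limma). It was the 1 called gene of 15 tested in the Notch list, against 0.129% of all genes called higher. That list had a median of 0.38, with 12 positive members and 7 above all MDA594 libraries, against 12.6% of all genes. Among these 7, only Jag2 passed. Card14, a scaffold that drives NF-kB in keratinocytes, had 15 to 35 reads in MDA594 and 567 and 666 in OR2, a 16.9-fold rise (adjusted p = 0.0416 by limma) that did not pass without OR2 library 1, OR2 library 2 or MDA594 library 2. Map3k20, the stress kinase ZAK that senses stalled ribosomes, rose by 1.85 (SE 0.32), and Rnd3 by 1.997 (SE 0.38). Gas1, a surface co-receptor for Hedgehog proteins, rose by 1.89 (SE 0.34), from 4.06 to 5.37 in MDA594 to 6.85 and 6.40 in OR2. Rapgef5, an activator of Rap proteins, had the smallest rise, 1.11 (SE 0.22, adjusted p = 0.0480 by limma).

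The remaining 4 higher genes were Wfdc3, Ncam1, Fam20c and Tmcc3. Wfdc3, a member of the whey acidic protein family, stood at 1.45, 1.52, 2.67 and 2.62 in MDA594 and at 5.27 and 4.28 in OR2 (2.81, SE 0.48, adjusted p = 0.0280 by limma), a 7.02-fold rise. Ncam1, a neural cell adhesion molecule, stood at 3.14 to 4.01 in MDA594 and at 5.57 and 5.58 in OR2, 4.22-fold. Fam20c, the Golgi kinase that phosphorylates caseins and other secreted proteins, rose by 1.74 (SE 0.31) and Tmcc3, an endoplasmic reticulum membrane protein, by 1.74 (SE 0.28). In OR2 against OR1, Tmcc3 at 1.81, Csrnp2 at 1.15, Xbp1 at 1.40 and Wfdc3 at 2.68 passed as well (adjusted p from 0.0210 to 0.0383 by limma), and the other 17 higher genes did not.

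The genes called in untreated tumours were next read in treated ones. Treated OR2 against treated MDA594 gave 258 calls, 1.58% of genes tested. Of the 35 genes, 33 had the same direction there and 8 were called in that direction, which is 22.9% of the 35 and 3.10% of the 258. These 8 were Snrpn, Snhg14, Gm38393, Kcnq1ot1, Zcchc12 and Gm10687 among the lower genes and Wfdc3 and Fam20c among the higher ones. The same tumour lines enter both comparisons, so this repeats the measurement in other animals and not in other lines.

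By median, the higher and the lower genes were both less apart in treated tumours. The median difference of the 21 higher genes was 1.997 untreated and 0.64 treated, and that of the 14 lower genes -2.20 and -1.21. The 35 were chosen on the untreated values. Genes chosen in this way tend to show smaller differences in other libraries, so no test was made on the medians. For Fezf1 the treated difference was 1.26, with treated OR2 at 0.60, 2.23 and 1.61 and treated MDA594 at -0.03, 0.64 and 0.10, and for Map3k20 it was -0.14. The test of the difference between both line differences called 0 of 16330 genes (smallest adjusted p 0.556 by limma), with 1006 at an unadjusted p under 0.05, and 0 with voom. For Map3k20, the gene with the smallest adjusted p in that test among the 35, the treated line difference was lower by 1.98 (SE 0.43, adjusted p = 0.557 by limma). Without OR2 library 2 this test called 30 genes and without OR2 treated library 2 it called 3.

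**Figure D3:**
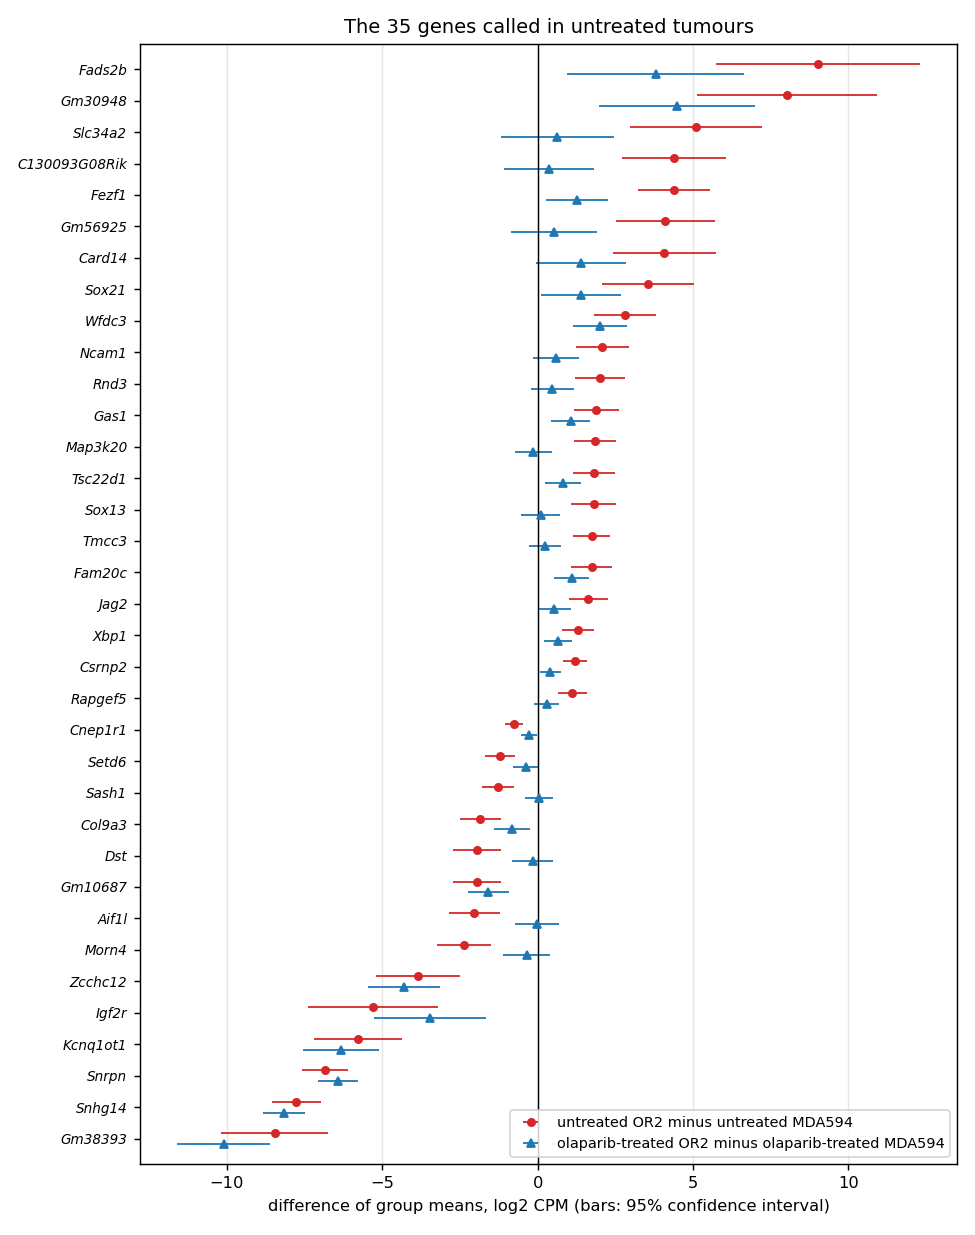
Difference between OR2 and MDA594 in log2 CPM (horizontal axis) for the 35 called genes (vertical axis), in untreated tumours (red circles) and olaparib-treated tumours (blue triangles), with 95% confidence intervals. Snhg14, Snrpn and Kcnq1ot1 lay in similar places in both, while for most higher genes the treated value was nearer 0; for genes with 0 to 3 reads in a library, such as Fads2b, Gm30948 and Gm38393, the position depends on the 0.5 reads that the values contain.

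Genes of DNA repair and drug transport, the routes by which resistance to olaparib is known to arise, showed no call. Across 6 repair lists and the transporter list, 112 genes were tested and 0 were called by limma, with 10 at an unadjusted p under 0.05, and 0 with voom. Over all 16330 genes, 35 were called, or 0.2%, and 1730 had an unadjusted p under 0.05. A count of 0 among 112 genes is thus near the share over all genes. Without the correlation within host codes 2 of the 112 were called, with array weights 17 and within the ABA450 libraries 25, where 3.3%, 16.0% and 24.9% of all genes were called. The median of the 112 was -0.02, and 13 lay above and 17 below all MDA594 libraries, against the 12.6% and 12% of all genes given above. For 89 of the 112 genes the 95% confidence interval stayed within 1 log2 unit either way, that is within a 2-fold change.

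The targets of the drug were among the closely matched genes. Parp1 stood at 6.55 to 7.16 in MDA594 and at 6.84 and 6.98 in OR2, with a difference of 0.12 (95% confidence interval -0.44 to 0.68). Parp2 differed by -0.11 (95% confidence interval -0.59 to 0.36), and Parg, which removes the chains that PARP enzymes build, by 0.02 (95% confidence interval -0.37 to 0.42). Each interval stayed within a 2-fold change of the message in either direction. Both untreated OR2 libraries have 1 host code, and the width of the intervals rests on the spread shared by all groups. The intervals thus cannot exclude a 2-fold difference between the lines over more animals. They also say nothing of the protein or of mutations.

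Recombination and end protection genes were likewise uncalled in this fit. Brca2 differed by -0.24 (95% confidence interval -0.82 to 0.34). Brca1 stood at 4.58 to 5.72 in MDA594 and at 6.06 and 5.57 in OR2, overlapping, and its difference of 0.72 did not pass (95% confidence interval 0.00 to 1.44, adjusted p = 0.470 by limma). In untreated OR1 it was at 6.13 to 6.71. Of the genes that shield broken ends, Trp53bp1 differed by -0.19 (95% confidence interval -0.60 to 0.23), Mad2l2 by 0.07 (95% confidence interval -0.46 to 0.60), Shld1 by -0.04 (95% confidence interval -0.55 to 0.47) and Shld2 by 0.04 (95% confidence interval -0.49 to 0.56). Shld3 was less well bounded, at -0.44 (95% confidence interval -1.29 to 0.41), as was Trp53 at -0.15 (95% confidence interval -1.17 to 0.88), which ranged from 2.68 to 4.61 in MDA594 alone. With array weights, Brca1 at 1.09 (adjusted p = 0.00912) and Shld3 at -0.95 (adjusted p = 0.0275) passed. Within ABA450, where 3994 genes did, Brca1 at 1.15 (adjusted p = 0.00368), Shld3 at -1.07 (adjusted p = 0.0047) and Trp53, with its direction turned, at 0.69 (adjusted p = 0.0455) passed. There each untreated line has 1 host code, and the fitted correlation within host codes was -0.30. These p-values thus do not measure the spread between untreated animals of either line. The 9-1-1 clamp gene Rad9a had the smallest adjusted p of the 112, at -0.69 (SE 0.20, adjusted p = 0.156 by limma), and it was called in treated tumours at -1.09 (adjusted p = 0.00537).

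Transporters were the most varied of these genes. The P-glycoprotein genes Abcb1a at -0.11 (95% confidence interval -1.31 to 1.10) and Abcb1b at -0.48 (95% confidence interval -1.58 to 0.63) were at -1.16 to 0.01 and -0.15 to 1.27 log2 CPM in MDA594 and within those ranges in OR2. Abcc4, which exports nucleotides and many drugs, stood at 2.63, 2.79, 4.40 and 4.48 in MDA594 and at 6.08 and 5.55 in OR2, a difference of 2.39 that did not pass (SE 0.78, adjusted p = 0.226 by limma). Abcg2, the breast cancer resistance protein, stood at 7.43 to 8.46 and at 7.08 and 6.75, a difference of -1.05 that did not pass either (SE 0.34, adjusted p = 0.233), and it was called lower in treated OR2, at -2.16 (adjusted p = 0.00261 by limma). Rad9a, Abcc4 and Abcg2 were named after their values were seen.

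**Figure D4:**
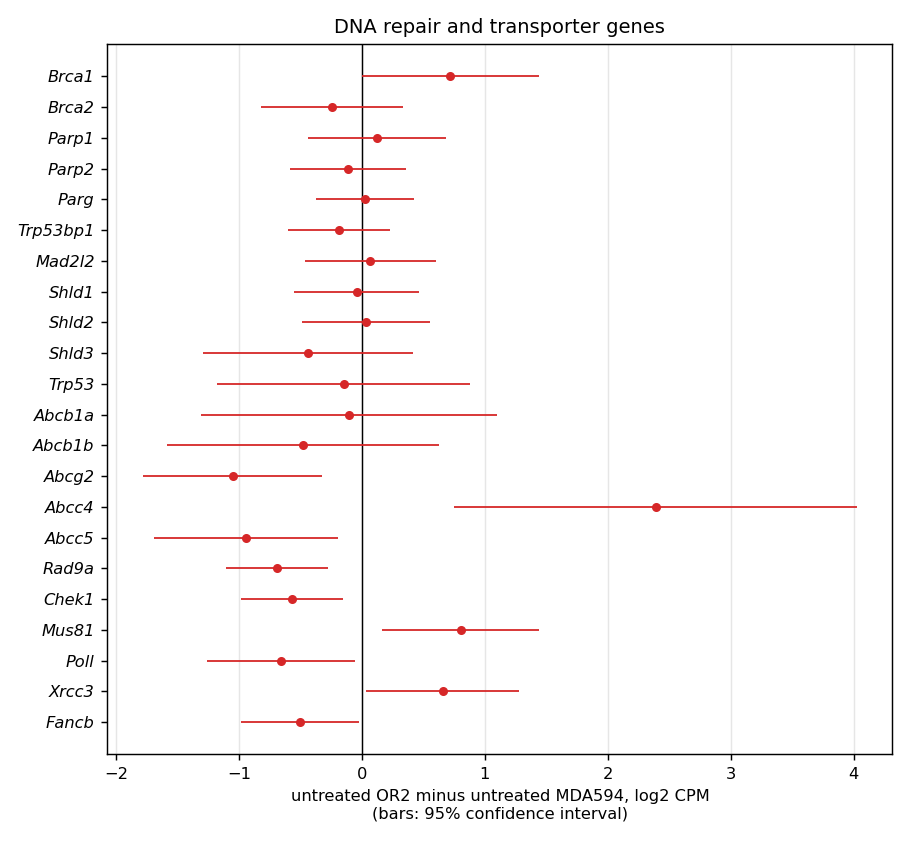
Untreated OR2 minus untreated MDA594 in log2 CPM (horizontal axis) with 95% confidence intervals for 22 DNA repair and transporter genes (vertical axis). None was called, the interval of Abcc4 was the widest, and the lower 9 genes from Abcg2 on were chosen after their values were seen.

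Lists of immune and host cell genes had no called member, where 35 of all 16330 genes were called. Their medians ran from near 0, as for endothelial genes, to beyond 2 log2 units. All 10 tested genes of class II antigen presentation had a negative difference, with a median of -2.38. Among them, 5 lay below all MDA594 libraries, against 12% of all genes. The summed level of the list was 1810, 174, 1500 and 856 CPM in MDA594 and 160 and 197 CPM in OR2. MDA594 library 2 was thus about as low as OR2, and the list median ranged from -3.21 to -1.94 when any 1 of the 6 libraries was left out. Cd74, the invariant chain, stood at 9.52, 5.64, 9.16 and 8.39 in MDA594 and at 5.11 and 5.25 in OR2, with a difference of -2.90 (SE 0.94, adjusted p = 0.225 by limma). Ciita, the master activator of class II genes, stood at 5.03, 1.23, 3.22 and 2.71 and at -0.43 and 0.28 (-3.14, SE 0.88, adjusted p = 0.147).

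Most lymphocyte markers had a negative difference, while their summed levels overlapped. Of 18 T cell markers, 16 had a negative difference, with a median of -1.76 and 4 below all MDA594 libraries, against 12% of all genes. Of 8 NK and cytotoxic markers all 8 were negative, with a median of -1.09 and 0 below all MDA594 libraries. Summed T cell markers were 67.3, 42.1, 63.0 and 56.4 CPM in MDA594 and 50.8 and 42.4 CPM in OR2. Summed NK markers were 13.2, 7.41, 25.6 and 11.4 CPM in MDA594 and 2.52 and 12.5 CPM in OR2. Macrophage markers had a median of 0.14 and overlapped as well. Dendritic cell markers had a median of -0.75, with 7 of 8 negative and 1 below all MDA594 libraries. They summed to 150, 173, 187 and 147 CPM in MDA594 and 41.1 and 80.1 CPM in OR2, without overlap. None of these lists had a gene past the threshold.

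Neutrophil genes went the other way. All 13 tested had a positive difference, with a median of 1.90, and 9 lay above all MDA594 libraries, against 12.6% of all genes. Their summed level was 54.8, 48.9, 165 and 102 CPM in MDA594 and 401 and 196 CPM in OR2. The chemokine receptor Cxcr2 stood at 1.76, 0.93, 1.97 and 1.15 in MDA594 and at 4.88 and 3.58 in OR2, a difference of 2.79 that did not pass (SE 0.76, adjusted p = 0.136 by limma). Against untreated OR1, at -0.85 to 0.65, the Cxcr2 difference of 4.45 did pass (adjusted p = 0.0271). Of 37 genes induced by type I interferon, 16 lay above all MDA594 libraries, against 12.6% of all genes. The 37 genes had a median of 1.06, with 36 positive and 0 called (smallest adjusted p 0.259 by limma). Their summed level was 923, 320, 395 and 368 CPM in MDA594 and 860 and 828 CPM in OR2, so that MDA594 library 1 exceeded both OR2 libraries. The median ranged from 0.77 to 1.44 when 1 of the 6 libraries was left out. Isg15, a ubiquitin-like interferon product, stood at 2.50, 1.22, 1.22 and 0.68 and at 3.19 and 3.41, a difference of 1.82 (SE 0.62). In treated tumours the interferon list had a median of -1.02 in OR2 against MDA594.

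**Figure D5:**
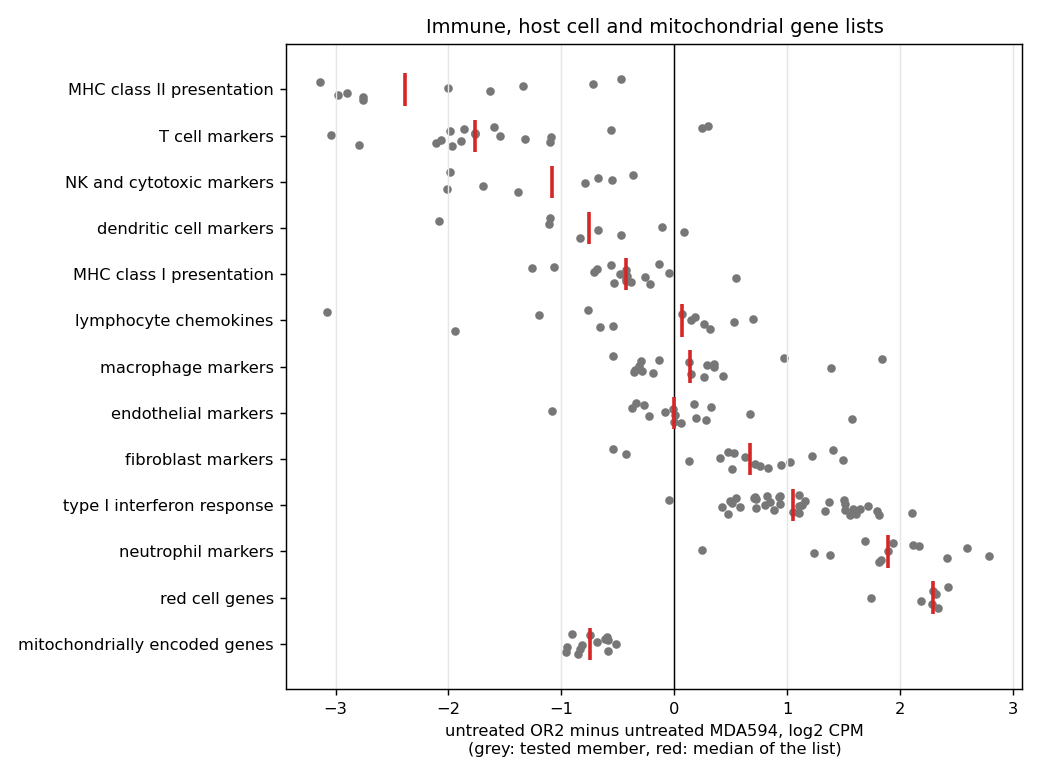
Untreated OR2 minus untreated MDA594 in log2 CPM (horizontal axis) for the tested members (grey points) of 13 gene lists (vertical axis), with the list median in red. No member of these lists was called. The medians of class II genes and of T cell and NK markers were below 0, and those of interferon, neutrophil and red cell genes above it.

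Markers of blood content and RNA state also differed between the libraries. Red cell genes had a median of 2.29 with 7 of 7 above all MDA594 libraries, against 12.6% of all genes. They summed to 125, 516, 761 and 515 CPM in MDA594 and 1190 and 2440 CPM in OR2. The 13 mitochondrially encoded genes were all negative, with a median of -0.74, and summed to 91300 to 138000 CPM in MDA594 and 87300 and 54100 CPM in OR2. Immediate early genes, which rise with handling and stress of tissue, had a median of 0.73. Among these 17 genes, 8 lay above all MDA594 libraries, against the same 12.6%. The part of blood content, mitochondrial share and handling in the differences above was not tested. Skeletal muscle markers summed to at most 13.1 CPM in any of the 6 libraries.

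Of the lists of growth, tumour identity and signalling, the 2 single calls in Notch and the unfolded protein response and the 4 imprinted genes were the only calls. Of 24 hypoxia and glycolysis genes, 22 were positive and 12 lay above all MDA594 libraries, against 12.6% of all genes. Their median was 0.53. Of 24 Wnt pathway genes, with a median of 0.79, 21 were positive and 10 lay above, against the same 12.6%. Among the 10 was Wif1, a secreted Wnt inhibitor, at -1.61 to 1.29 in MDA594 and 3.81 and 3.31 in OR2. Its difference of 3.55 did not pass untreated (SE 0.89, adjusted p = 0.110 by limma) and passed in treated tumours, at 3.86 (adjusted p = 0.0236). The milk protein genes Csn1s1 and Csn2 stood at 0.27 to 0.74 and -3.91 to -0.78 in MDA594. In OR2 they stood at 3.49 and 4.84 and at 1.86 and 3.79, without passing (adjusted p = 0.111 and 0.178 by limma). The 9 tested genes of the milk list had a median of 0.81, with 8 positive and 1 negative. Their summed level overlapped, at 1910, 2880, 3420 and 4620 CPM in MDA594 and 3640 and 4040 CPM in OR2. In treated OR2 against treated MDA594 the list median was -0.15. Luminal mammary markers had a median of 0.48 and basal ones 0.48. Genes of DNA replication had a median of -0.13 and those of mitosis -0.24, with 24 of 32 and 27 of 30 negative.

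In order along the chromosomes, stretches of 15 neighbouring tested genes with the highest and lowest medians held genes of the lists above in 3 of 6 cases. The highest ran from Lipo3 to Slc16a12 with a median of 1.04 and contains the Ifit genes of the interferon response, and the next from Igsf8 to Ifi208 with 0.83 contains the interferon-inducible Ifi200 family. The third, from Gm30948 to Itgb8, had a median of 0.81 with 13 of 15 positive, held the 2 called genes Gm30948 and Rapgef5, and kept medians of 0.54 to 0.85 without any 1 library of the comparison. The lowest stretch, Rxrb to H2-Eb2 at -1.34, is the class II region of the major histocompatibility complex, and Dynlt1a to Fndc1 at -0.996 lies on the same chromosome, 17, and holds close copies of Dynlt1 whose reads may not be separate. The stretch from Gid8 to Lime1 on chromosome 2 had a median of -0.98, with 14 of 15 genes negative, 0 called, and -0.99 to -0.92 without any 1 library. In untreated OR1 against untreated MDA594 the same stretch had a median of 0.03, and in treated OR2 against treated MDA594 -0.38.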

How the data were processed

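The RNeasy Mini Kit was used for RNA and the KAPA Stranded mRNA-Seq kit for sequencing libraries, per the labels' protocols. STAR 2.7.10a, RSEM 1.3.1, limma and genome build GRCm39 are named in the submitters' processing notes; the annotation release and the strand setting of counting are not given in the sources used here. The authors deposited 1 table of log2 CPM values for 16411 genes. After the antilog and removal of the 0.5 reads that each value contains, 100% of values in every library were whole reads within 0.01 reads, with 36.8 to 118 M reads per library. A voom fit on those reads called 38 genes. Genes with log2 CPM above 0 in at least 2 libraries were kept, which removed 81.

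The 19 grouped libraries were fitted together in limma 3.58.1 (R 4.3.3), with 1 mean per group, a correlation of 0.404 between libraries of 1 host code and a mean-variance trend. Tests were two-sided, adjusted by the Benjamini-Hochberg method over 16330 genes, with a threshold of 0.05. The procedure was run on data simulated under the assumptions of this fit, with the same correlation for all genes. That run cannot show whether calls hold where the spread differs between groups. Named genes were the 12 largest rises and falls with a mean of at least 1 log2 CPM in the higher group and no overlap, called list members, called genes of the chromosomal stretches and a set of fixed markers; called genes outside these, Zcchc12, Cnep1r1, Csrnp2, Fam20c, Tmcc3, Sox13, Tsc22d1 and Sox21, were named after their values were seen, as were the uncalled genes described for their lists. Comparison, lists and tests were chosen with earlier results of these data known. Gene order came from a GRCm38 annotation and was used for neighbours only. Some results on withheld items are not reported here. The library whose title and treatment label disagree was left out. Alternatives covered the libraries fitted, the correlation, the filter, the pseudocount, the scaling, the variance model, the series of library names and each library in turn.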

Additional observations from a re-analysis of the deposited data

Results flagged for a closer look

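Of 58 named genes checked, 2 had a library far from the other 3 within untreated MDA594, where chance gives about 1 in 20 groups. Parg stood at 4.341 log2 CPM in MDA594 library 1, against 4.7674 to 4.8307 in the other 3. Vim stood at 8.0381 in MDA594 library 3, against 7.0146 to 7.1555 in the other 3.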

How the results depend on the processing

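Directions held for all 35 genes in each of the 28 alternatives in which they were tested, while the number called changed with the setting. Against 21 higher and 14 lower genes, a fit of the 6 libraries alone called 1 and 6, no correlation within host codes 298 and 244, means per host code 5 and 8, a pseudocount of 1 CPM 52 and 23, quantile normalisation 37 and 22, array weights 1444 and 1164, and ABA450 libraries alone 2175 and 1819. Lower genes also numbered 8 with voom and 9 without the mean trend. The 1 higher gene in the fit of the 6 libraries alone was not among the 21. Leaving out 1 library gave 1 to 119 higher and 4 to 126 lower genes. The fitted correlation was -0.05 with array weights and -0.30 within ABA450. Snhg14, Snrpn, Gm38393 and Kcnq1ot1 were called in all 28 alternatives.

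For OR2 against OR1, with 28 calls, the count was 569 without the correlation, 14 with voom, 1332 with array weights, 134 within ABA450 and 6 to 180 without 1 library. For treated tumours, with 258, it was 797, 3830 and 1967 without the correlation, with array weights and within ABA450, and 19 to 539 without 1 library. For the difference between both line differences, with 0, it was 459 with array weights, 957 within ABA450 and 0 to 30 without 1 library. Except for the planned leave-one-out fits of OR2 against OR1 and of treated tumours, the alternatives of these 3 comparisons, and leaving out libraries of other groups, were chosen after seeing the data. The cause of these changes was not tested. Of 1098 values of named genes, 960 stayed on their side of the threshold, 132 no longer passed and 5 newly passed in the same direction. Trp53 turned from -0.15 to 0.69 and passed within ABA450. No called gene changed sign, and 34 of 434 values of uncalled genes did. No paired analysis was possible because untreated OR2 and untreated MDA594, like OR2 and OR1 untreated and the treated groups of OR2 and MDA594, share no number in their titles. Untreated and treated tumours of OR2 share 1, as do those of MDA594, and the labels do not say what the number is. Depth limits genes with few reads, such as Fads2b, Gm30948 and Gm38393, and the single host code of untreated OR2 limits all results.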

Other observations

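By chromosome, over genes with a mean above 2 log2 CPM, the median difference between untreated OR2 and untreated MDA594 was lowest on chromosome 8, at -0.32 over 639 genes, of which 79.5% were negative. The 2 OR2 libraries differed there, at -0.49 and -0.14 relative to MDA594, and treated OR2 against treated MDA594 gave -0.05. On chromosome 17 the median was -0.28 over 590 genes, with 81.0% negative, and the OR2 libraries stood at -0.06 and -0.53. Untreated OR1 against untreated MDA594 gave -0.54 on that chromosome. The highest median was on chromosome 11, at 0.13 over 973 genes. Neighbouring genes are not independent, and no test was made.

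The library left out of all comparisons had Snhg14 at 5.23 log2 CPM, Snrpn at 4.42, Kcnq1ot1 at 6.42, Igf2r at 9.53, Fezf1 at -0.81, Zcchc12 at 0.50 and Xbp1 at 7.19.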
